A study of Homo sapiens with 14 samples.

Results

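Collagen genes were taken by name from the deposited RNA-Seq table: every gene whose symbol is COL, a number, A, a number and nothing more. The rule used no measured value and found 42 of the 19410 genes in the table, for chains of 27 collagen types. RNA came from MDA-MB-231, a human triple-negative breast cancer cell line of mesenchymal appearance, in 7 groups of 2 libraries each: Parental, SAP30-KO1 and SAP30-KO2 (SAP30 knockout), SIN3A/3B-DKO1 and SIN3A/3B-DKO2 (SIN3A and SIN3B knockout), and MLL1-KO1 and MLL1-KO2 (MLL1 knockout). All groups were grown in DMEM with fetal bovine serum and labelled as having no treatment. The edited lines were made with CRISPR/Cas9 and puromycin selection, and each line is a small pool of cloned cells rather than 1 clone. The authors state that such lines were checked by immunoblot. The legends of their SIN3A and SIN3B blots name a SIN3A/3B-DKO without telling DKO1 from DKO2. The paper lists 1 guide for SIN3A and 1 for SIN3B. The labels call the control cells parental and name no control guide, so that editing, selection and cloning cannot be told apart from loss of the targeted gene. Every comparison with Parental shares the same 2 parental libraries.

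Collagens are the main structural proteins of the extracellular matrix. Their chains carry long repeats in which every glycine is spaced by the same interval, are hydroxylated and glycosylated in the endoplasmic reticulum, wind into a triple helix and are then secreted. Fibrillar types build fibres, type IV builds the sheet of basement membranes, type VI builds beaded filaments close to the cell, type VII anchors basement membranes to the tissue below, and types XIII and XVII stay in the plasma membrane. Carcinoma cells and stromal cells both make collagens, and basement membrane collagens are the barrier that carcinoma cells meet when they invade. SAP30 is a subunit of the SIN3 corepressor complex, for which SIN3A and SIN3B are the scaffolds, and MLL1 (KMT2A) is a histone H3 lysine methyltransferase linked with active promoters. The comparisons ask which collagen genes differed between Parental and cells lacking each of these proteins.

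The libraries held 18415036 to 23162682 reads, recovered from the steps of the deposited values. SAP30 stood at 78.9 to 82.8 TPM (transcript abundance scaled by gene length to a fixed library total) in Parental and 2.75 to 4.96 in the SAP30 lines. SIN3A stood at 43.1 to 45.4 TPM in Parental and, with no decrease, at 55.1 to 62.5 in the SIN3A/3B lines as labelled, whereas SIN3B stood at 75.1 to 77.4 and 43.5 to 50.2, respectively. MLL1, listed as MLL, stood at 49 to 56.7 TPM in Parental, 15.8 to 27.7 in the MLL1 lines and 23 to 35.4 in the SAP30 lines. RNA level is only a partial check of a CRISPR edit. The directions below for these lines rest on their labels and on the authors' immunoblots, which are not analysed here. As described, those blots do not separate SIN3A/3B-DKO1 from SIN3A/3B-DKO2. Vimentin (VIM) was at 5740.6 to 8804.6 TPM in all 14 libraries, higher by 0.59 in MLL1-KO1 on the log2 scale, and ESR1, the estrogen receptor, at most at 0.191 TPM. ERBB2 stood at 42.8 and 41.5 TPM in Parental and fell in 5 lines (log2 -0.90 to -0.61; -0.55 in MLL1-KO2, under 1.5-fold). CD44, listed with VIM as a marker of these cells, stood at 284 and 286 TPM in Parental and rose in the MLL1 lines (469 to 611). It was at 377 to 386 TPM in the SAP30 lines and 267 to 318 in the SIN3A/3B lines, under 1.5-fold. Among epithelial markers, EPCAM fell in all 6 lines (log2 -1.59 to -0.65), KRT8 in the SAP30 and MLL1 lines (-1.98 to -0.81) and KRT18 in the SAP30 lines, SIN3A/3B-DKO1 and MLL1-KO2 (-1.07 to -0.62). Of 8 fibroblast markers, 2 passed the filter on low values given below, and both fell in each SAP30 and SIN3A/3B line and 1 in each MLL1 line. The list summed to 10.0 to 12 TPM in Parental and 2.36 to 5.06 TPM in the edited lines. The largest part of that difference was ACTA2, smooth muscle actin, at 7.06 and 6.63 TPM in Parental and 0.526 to 2.57 in the edited lines, and THY1 had reads in the parental libraries alone, at 1.04 and 0.298 TPM. The endothelial markers summed to 3.36 to 9.70 TPM, with CDH5 at most at 0.0337, PECAM1 higher in the SAP30 and MLL1 lines (log2 0.59 to 0.84) and KDR lower in MLL1-KO1 (-1.82) and higher in MLL1-KO2 (0.93). The leukocyte markers summed to 0.696 to 4.15 TPM, with CD14 higher in the SAP30 lines (0.65 and 0.64) and lower in MLL1-KO1 (-1.05). Of 3 chondrocyte markers, 2 were listed and passed the filter. SOX9 stood at 107 to 182 TPM in all 14 libraries, and its changes were under 1.5-fold (log2 -0.37 to 0.37). MATN3 stood at 9.1 and 8.84 TPM in Parental and 1.46 to 4.32 in the MLL1 lines. It fell in both MLL1 lines (log2 -1.15 and -2.21) and in SAP30-KO2 (-0.69). The part of these markers and of other cell types in the collagen results was not tested. Nothing in the labels says that the libraries of a group came from separate cultures, so p-values measure the spread between these libraries, which may be technical.

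The family was carried by a few genes. The 42 genes summed to 768 to 960 TPM per library, with 950 ± 14.2 TPM (SD, n = 2) in Parental. The highest means over the 14 libraries were those of COL13A1 (226 TPM), a transmembrane collagen of cell contacts, COL8A1 (179 TPM), a short-chain network collagen of vessel walls and Descemet's membrane, and COL4A2 (130 TPM), a basement membrane chain. These genes were followed by COL6A1, COL5A1, COL4A1, COL12A1, COL18A1, COL7A1, COL6A3, COL9A2 and COL17A1, from 48.4 down to 8.75 TPM. COL13A1, COL8A1 and COL4A2 together made up 65.1% ± 0.0720 (SD, n = 2) of the family sum in Parental, 67.7% ± 0.157 and 68.1% ± 1.08 in the SAP30 lines, and 76.8% ± 0.221 and 73% ± 1.15 in the SIN3A/3B lines. In the MLL1 lines the same genes held 44.2% ± 0.290 and 49.5% ± 0.770 of the sum. The summed level was 778 to 913 TPM in the means of the edited lines, and the share held by these genes lay farthest from Parental in the MLL1 lines. The bar plot of summed levels shows this by gene.

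**Figure D1:**
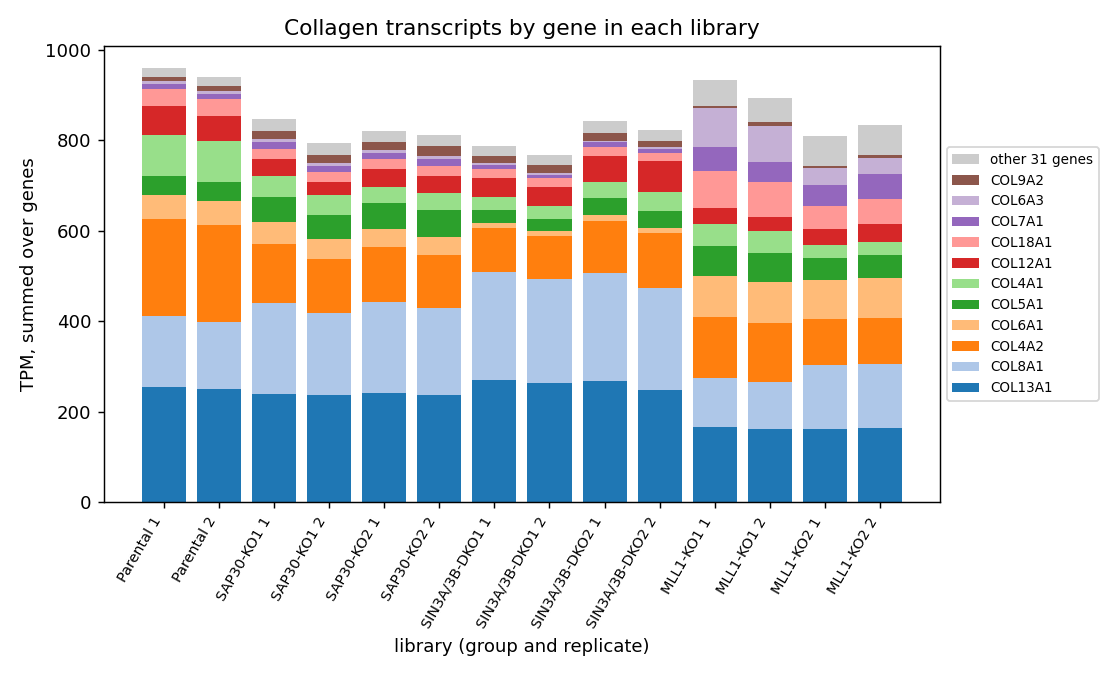
Summed TPM of the collagen genes (y axis) in each of the 14 libraries (x axis), split by colour into the 11 genes with a mean of at least 10 TPM and the other 31 genes. Library sums lie between 768 and 960 TPM. COL13A1, COL8A1 and COL4A2 fill 44% to 76.9% of each bar, with the smallest share in the MLL1 libraries, where COL6A1, COL6A3, COL7A1 and COL18A1 take more.

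A gene entered the tests when it reached 1 TPM in at least 2 of the 14 libraries, which 20 of the 42 collagen genes and 13540 genes in all did. Differences are given as log2 changes on the log2(TPM + 0.5) scale with the standard error (SE) of a limma fit over all libraries, and this scale understates the change of genes at low levels. A gene is said to have changed, risen or fallen where the Benjamini-Hochberg adjusted p over all genes tested was under 0.05 and the change was at least 1.5-fold. The other 22 collagen genes were at or near 0. COL2A1, the cartilage fibril chain, had no read in any library, and a count of 0 allows up to 3 reads per library. Another 15 genes, among them COL3A1, COL10A1 and COL11A1, had at most 5 reads in every library. The remaining 6 genes had more than 5 reads in some library: COL1A2, COL4A4, COL4A6, COL11A2, COL19A1 and COL21A1. Several tested chains therefore lacked their usual partner at a measurable level: COL1A1 without much COL1A2, and COL9A2 and COL9A3 with at most 1 read of COL9A1 per library.

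**Figure D2:**
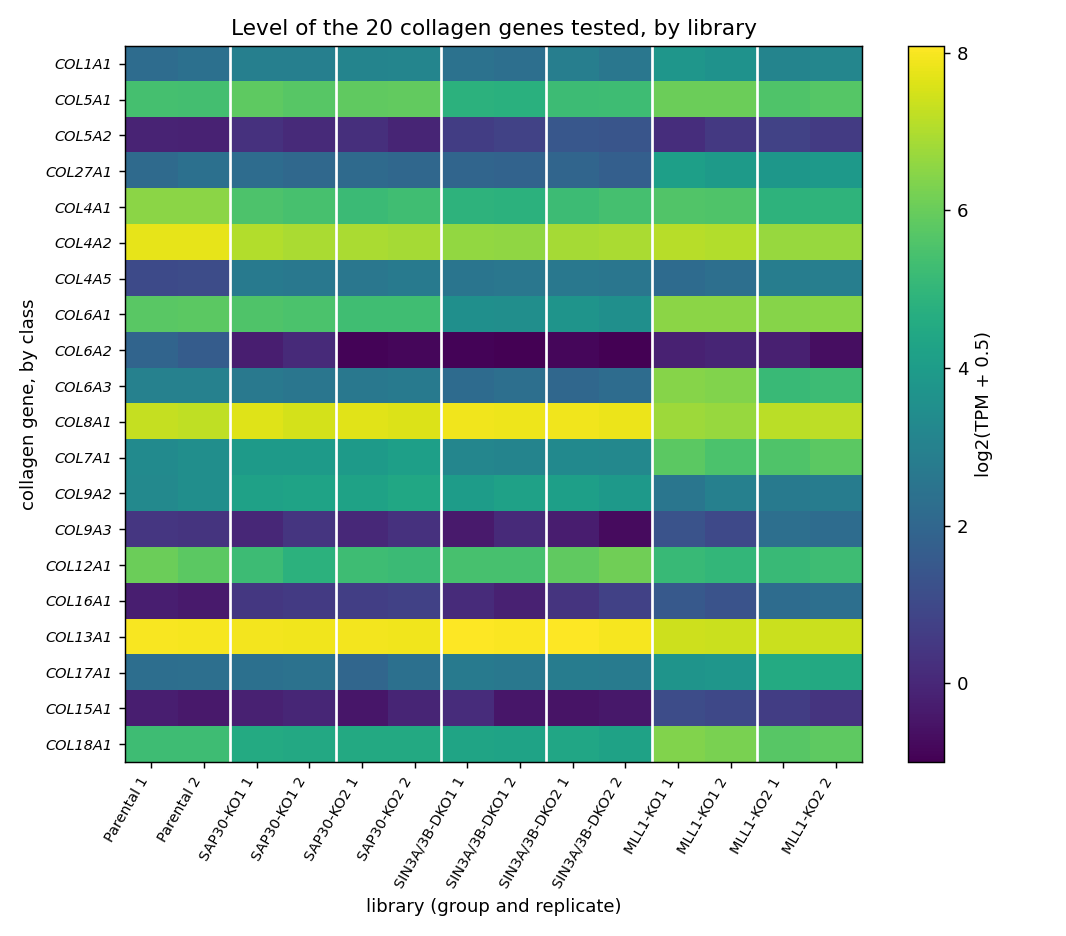
Level of the 20 collagen genes tested (rows, grouped by class) in each library (columns, 2 per group, separated by white lines), as log2(TPM + 0.5) in colour. COL13A1, COL8A1 and COL4A2 are bright in every library. COL6A3, COL7A1, COL17A1, COL27A1 and COL16A1 are brighter in the 4 MLL1 libraries than in Parental, and COL6A2 is dark outside Parental.

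Type IV collagen is the network of basement membranes, and its common trimer joins the chains encoded by COL4A1 and COL4A2. These neighbours are transcribed away from each other from a shared promoter on chromosome 13 (GRCh37, COL4A1 at chr13:110801310-110959504 on the minus strand and COL4A2 at chr13:110958159-111165556 on the plus strand). Their annotated RefSeq starts on GRCh38.p14 lie 127 bases apart. Because the pair moved together, the bases between the starts are printed here, on the plus strand, with a CCAAT box (CCAAT) and a GC box (GGGCGG), each searched on both strands, in capitals.
COL4A1 and COL4A2, chr13:110307158-110307283, plus strand: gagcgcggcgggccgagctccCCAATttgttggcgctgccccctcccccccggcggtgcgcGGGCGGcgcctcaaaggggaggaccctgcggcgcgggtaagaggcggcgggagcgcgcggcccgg
The run of 126 bases holds 1 CCAAT box, 1 GC box, no TATAAA and 20 CG pairs. Over the 126 bases before each of 35116 RefSeq starts, 21.1% held a CCAAT box, 34.6% a GC box and 5.87% a TATAAA, and the median number of CG pairs was 6. The letters describe the sequence only, and no motif match overlaps another in the windows printed here or below.

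COL4A1 and COL4A2 fell in all 6 edited lines. COL4A1 stood at 90.5 and 90.6 TPM in Parental, 46.6 and 43.2 (KO1) and 36 and 38.5 (KO2) in the SAP30 lines, 29.1 and 27.8 (DKO1) and 36.6 and 41.8 (DKO2) in the SIN3A/3B lines, and 49 and 47.3 (KO1) and 28.8 and 29.7 (KO2) in the MLL1 lines. The parental libraries were the highest and no edited library came within 1.5-fold of them. Its log2 change was -1.01 and -1.27 in the SAP30 lines, -1.65 and -1.20 in the SIN3A/3B lines, and -0.91 and -1.62 in the MLL1 lines (SE 0.06, adjusted p at most 4.4e-07). COL4A2 stood at 215 and 214 TPM in Parental, 132 and 120.1 (KO1) and 123 and 117 (KO2) in the SAP30 lines, 96.7 and 94.4 (DKO1) and 115 and 120.1 (DKO2) in the SIN3A/3B lines, and 136 and 131 (KO1) and 101 and 102 (KO2) in the MLL1 lines. Again both parental libraries lay above all 12 edited libraries. Its log2 change ran from -1.16 in SIN3A/3B-DKO1 to -0.68 in MLL1-KO1 (SE 0.05, adjusted p at most 2.6e-07). The log2 change of COL4A1 was larger in size than that of COL4A2 in every line, and the ratio of COL4A2 to COL4A1 TPM, 2.37 ± 0.0161 (SD, n = 2) in Parental, was 2.77 to 3.48 in the means of the edited lines. The lowest single library ratio was parental, at 2.36. Between the MLL1 lines, COL4A1 was higher in MLL1-KO1 (log2 difference 0.71, SE 0.06, adjusted p = 9.4e-06). Because the gene models of the pair overlap at their starts and the strand setting of the authors' counting is not given in the sources used here, reads in the overlap cannot be assigned to a gene with certainty. Genes around the pair also stood lower: the running median of 51 neighbouring genes on chromosome 13 was -0.38 to -0.28 at COL4A1 over the 6 lines on the log2 scale. With that median subtracted, COL4A1 kept its call in 5 lines but not in MLL1-KO1 (-0.53), and COL4A2 kept it in SIN3A/3B-DKO1 (-0.85) and MLL1-KO2 (-0.74) and not in the other 4 lines (-0.56 to -0.30). In bulk RNA, fewer cells with a transcript and less of it per cell cannot be told apart.

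COL4A5, on the X chromosome, encodes a chain of the specialised type IV network of kidney, eye and skin, and moved the other way. It stood at 1.54 and 1.64 TPM in Parental, 6.17 and 5.66 (KO1) and 5.53 and 6.09 (KO2) in the SAP30 lines, 5.3 and 5.57 (DKO1) and 5.69 and 5.48 (DKO2) in the SIN3A/3B lines, and 4.07 and 4.51 (KO1) and 6.76 and 6.88 (KO2) in the MLL1 lines. The parental libraries were the lowest, and no edited library overlapped them. COL4A5 rose in all 6 lines, with log2 changes of 1.19 in MLL1-KO1 to 1.81 in MLL1-KO2 (SE 0.09, adjusted p at most 8.6e-07). The median of its 51 neighbours was also above 0, at 0.46 to 0.75 over the lines, and with it subtracted COL4A5 kept its call in every line, at 0.72 to 1.35. It was lower in MLL1-KO1 than in MLL1-KO2 (log2 difference -0.61, SE 0.09, adjusted p = 0.00034), a call that was lost without MLL1-KO1 replicate 1 (-0.55). Its partners were scarce. COL4A4 had 57 and 51 reads in Parental, 5 to 14 reads in each SAP30 and SIN3A/3B library and 51 to 69 reads in each MLL1 library, so that the 8 SAP30 and SIN3A/3B libraries lay below all others. Tested without the filter on low values, COL4A4 fell in the SAP30 and SIN3A/3B lines (log2 change -1.12 to -0.96, limma adjusted p at most 0.00011) and was at 0.04 and 0.07 in the MLL1 lines. Reads relative to depth put COL4A4 5.49-fold lower in SIN3A/3B-DKO1, the smallest of the 4 ratios, with a 95% exact counting interval of 3.48 to 9.03. COL4A3, head to head with COL4A4, had at most 3 reads in a library. COL4A6, head to head with COL4A5, had 3 and 4 reads in Parental and 6 to 23 in the edited libraries, and rose in MLL1-KO2 in that fit (log2 change 0.72, adjusted p = 0.00087), with SIN3A/3B-DKO1 just under 1.5-fold (0.56, adjusted p = 0.0048). By reads relative to depth COL4A6 was 6.10-fold higher in MLL1-KO2 than in Parental (95% exact interval 2.72 to 16.1), 2.88-fold in MLL1-KO1 (1.2 to 7.95), 4.77-fold (2.11 to 12.6) and 4.14-fold (1.81 to 11.1) in the SIN3A/3B lines, and 3.26-fold in SAP30-KO1 (1.36 to 8.95). The interval of SAP30-KO2, at 1.84-fold, was 0.705 to 5.33 and included 1.

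Type VI collagen is a beaded filament built from trimers that need a chain each of COL6A1, COL6A2 and COL6A3, and the 3 genes went different ways. Summed over the type, levels were 64.4 ± 0.658 TPM (SD, n = 2) in Parental, 51.9 ± 1.68 and 45 ± 0.370 in the SAP30 lines, 15.1 ± 0.0832 and 15.6 ± 0.607 in the SIN3A/3B lines, and 174 ± 3.37 and 124 ± 1.70 in the MLL1 lines. COL6A3 and COL6A2 had the largest rise and the largest fall of the tested members on the log2 scale, and the 250 bases before their RefSeq starts (GRCh38.p14) are printed 5′ to 3′ on the strand of the gene, with GC boxes and TATAAA on either strand in capitals.
COL6A3, chr2:237414165-237414414, minus strand: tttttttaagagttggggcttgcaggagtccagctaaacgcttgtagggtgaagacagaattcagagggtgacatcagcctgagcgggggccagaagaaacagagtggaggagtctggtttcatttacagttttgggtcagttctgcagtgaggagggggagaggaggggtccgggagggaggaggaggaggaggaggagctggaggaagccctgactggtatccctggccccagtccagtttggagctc
COL6A2, chr21:46097862-46098111, plus strand: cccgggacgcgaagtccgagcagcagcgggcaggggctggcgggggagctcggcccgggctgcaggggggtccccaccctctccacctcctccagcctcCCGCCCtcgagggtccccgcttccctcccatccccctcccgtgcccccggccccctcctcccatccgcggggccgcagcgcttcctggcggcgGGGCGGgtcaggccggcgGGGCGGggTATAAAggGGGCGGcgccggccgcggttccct
The COL6A3 window has no GC box, CCAAT or TATAAA and 3 CG pairs, whereas the COL6A2 window has 4 GC boxes, 1 TATAAA and 28 CG pairs. Among 35116 windows of 250 bases, 42.6% held a GC box, 32.0% a CCAAT and 10.7% a TATAAA, and the median was 11 CG pairs. The promoter windows of this pair thus lie on either side of the median in CG content.

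COL6A1 stood at 53.3 and 54.8 TPM in Parental, 46.8 and 44.7 (KO1) and 39.1 and 39.3 (KO2) in the SAP30 lines, 11 and 10.7 (DKO1) and 12.4 and 11.1 (DKO2) in the SIN3A/3B lines, and 90.1 and 89.6 (KO1) and 86.4 and 87.8 (KO2) in the MLL1 lines. The SIN3A/3B libraries were the lowest, the MLL1 libraries the highest, and the SAP30 libraries lay between the SIN3A/3B libraries and Parental, with no overlap between these sets. COL6A1 fell in the SIN3A/3B lines (log2 change -2.26 and -2.16) and rose in the MLL1 lines (0.73 and 0.68, SE 0.05, adjusted p at most 7.7e-07). In the SAP30 lines its change, -0.24 and -0.46, had adjusted p of 0.0032 and 3.2e-05 but was smaller than 1.5-fold. The genotypes differed from each other as well: the SAP30 lines were above the SIN3A/3B lines by 1.86 (SE 0.04, adjusted p = 3e-10) and below the MLL1 lines by 1.05 (SE 0.04, adjusted p = 1e-09) on the log2 scale.

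COL6A3 encodes the long chain that is processed after secretion and from which endotrophin is released. It stood at 7.37 and 7.52 TPM in Parental, 5.91 and 5.46 (KO1) and 5.66 and 5.96 (KO2) in the SAP30 lines, 4.02 and 4.5 (DKO1) and 3.57 and 4.11 (DKO2) in the SIN3A/3B lines, and 85.6 and 81.3 (KO1) and 35.5 and 36.8 (KO2) in the MLL1 lines. Its level was under 8 TPM in the 10 libraries outside the MLL1 lines, and the highest of them was parental. COL6A3 rose in MLL1-KO1 by 3.40 on the log2 scale (SE 0.08, adjusted p = 1.4e-10) and in MLL1-KO2 by 2.21 (adjusted p = 2.3e-09), and the difference between these lines passed the test (1.19, SE 0.08, adjusted p = 1.3e-06). The median of its neighbours on chromosome 2 also differed between these lines, at -0.02 in MLL1-KO1 and -0.50 in MLL1-KO2. COL6A3 fell in the SIN3A/3B lines, with log2 changes of -0.74 and -0.88 (adjusted p 2.4e-05 and 8.3e-06). The ratio of COL6A1 to COL6A3 TPM was 7.26 ± 0.0458 (SD, n = 2) in Parental, 6.75 to 8.06 in the SAP30 lines and 2.56 to 3.09 in the SIN3A/3B lines. In the MLL1 lines the ratio was 1.08 ± 0.0354 (KO1) and 2.41 ± 0.0342 (KO2), so that in MLL1-KO1 the chains were at nearly equal level.

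COL6A2, next to COL6A1 on chromosome 21 (GRCh37, chr21:47518026-47552762, plus strand), was scarce already in Parental, with 104 and 79 reads, or 3.33 and 2.6 TPM. It had 11 and 19 (KO1) and 1 and 2 (KO2) reads in the SAP30 lines, 1 and 0 (DKO1) and 2 and 0 (DKO2) in the SIN3A/3B lines, and 14 and 16 (KO1) and 11 and 4 (KO2) in the MLL1 lines. Every edited library was under 1 TPM and below both parental libraries, so COL6A2 entered the tests through Parental alone. COL6A2 fell in all 6 lines, with log2 changes of -2.75 to -1.86 (SE 0.22, adjusted p at most 4.7e-05), and these sizes depend on the pseudocount where 3 or fewer reads remained. By reads relative to depth it was 6.43-fold lower in SAP30-KO1 (95% exact interval 4.35 to 9.80), 6.95-fold in MLL1-KO1 (4.71 to 10.6) and 12-fold in MLL1-KO2 (7.08 to 21.9). In SAP30-KO2 the ratio of Parental to line was 71.1 (24 to 348), in SIN3A/3B-DKO1 it was 214 (37.9 to 8496) and in SIN3A/3B-DKO2 it was 107 (29.3 to 894), intervals that cover counting error only. ACTA2 and THY1, given above, were also lower outside Parental, and their part in this result was not tested. The neighbouring COL6A1 did not share the pattern, since it was higher in the MLL1 lines than in Parental.

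**Figure D3:**
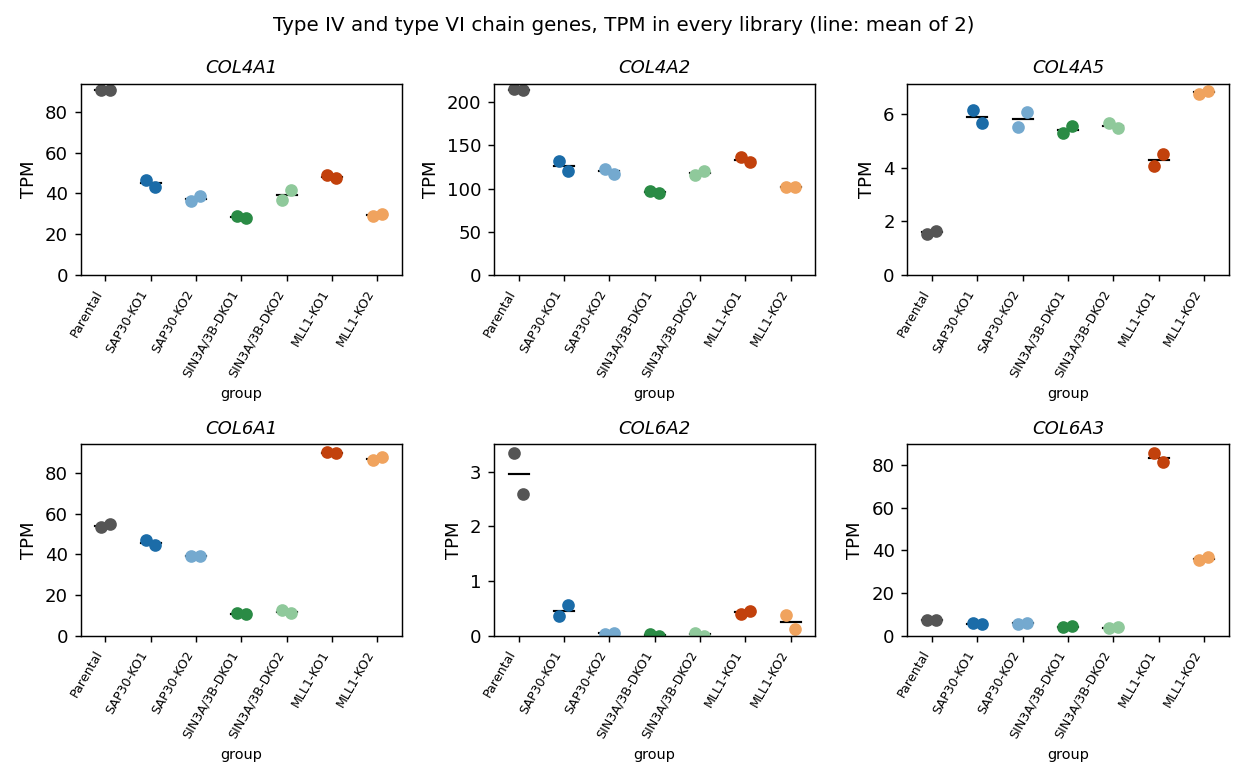
TPM (y axis, from 0) of 3 type IV chain genes (top) and 3 type VI chain genes (bottom) in each library, by group (x axis). Points are libraries and black lines are the means of 2. COL4A1, COL4A2 and COL6A2 are highest in Parental, COL4A5 is lowest there, COL6A1 is low in the SIN3A/3B lines, and COL6A3 is high in the MLL1 lines, at 81.3 to 85.6 TPM (MLL1-KO1) and 35.5 to 36.8 TPM (MLL1-KO2).

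Fibrillar chains were at moderate to low levels. COL1A1, the main chain of type I collagen in skin and bone, stood at 4.15 and 4.55 TPM in Parental, 7.15 and 7.16 (KO1) and 8.06 and 8.24 (KO2) in the SAP30 lines, 4.81 and 4.5 (DKO1) and 6.87 and 5.51 (DKO2) in the SIN3A/3B lines, and 13.2 and 11.7 (KO1) and 8.17 and 8.6 (KO2) in the MLL1 lines. Parental had the lowest library and both MLL1-KO1 libraries were the highest, while Parental and SIN3A/3B-DKO1 overlapped. COL1A1 rose in the SAP30 lines (0.66 and 0.83, adjusted p 0.00033 and 5.9e-05) and in the MLL1 lines (1.42 and 0.87, adjusted p 5.7e-07 and 2.5e-05, SE 0.10). With the median of its neighbours subtracted, COL1A1 was at 0.49 in SAP30-KO1, which is under 1.5-fold, 0.68 in SAP30-KO2, and 1.93 and 1.33 in the MLL1 lines, where that median was -0.51 and -0.46. COL1A2, its partner in type I collagen, had 15 and 16 reads in MLL1-KO1, 4 and 3 in MLL1-KO2, 1 in each parental library and at most 2 elsewhere. Without the filter on low values it rose in MLL1-KO1 (log2 change 0.70, adjusted p = 5.1e-06), and by reads relative to depth it was 13.6-fold higher there than in Parental, with a 95% exact counting interval of 3.46 to 117.

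COL5A1 encodes the chain of type V collagen that starts fibrils, and COL5A2 its partner. COL5A1 stood at 41.4 and 41.2 TPM in Parental, 56.7 and 52.5 (KO1) and 57.5 and 59.6 (KO2) in the SAP30 lines, 27.9 and 26.5 (DKO1) and 36.7 and 37.7 (DKO2) in the SIN3A/3B lines, and 66.2 and 65.7 (KO1) and 47.5 and 50.5 (KO2) in the MLL1 lines. The SIN3A/3B libraries were the lowest and those of MLL1-KO1 the highest. COL5A1 fell in SIN3A/3B-DKO1 (-0.59, adjusted p = 2.9e-06, and -0.56 without SIN3A/3B-DKO1 replicate 2, which is under 1.5-fold) and rose in MLL1-KO1 (0.67, adjusted p = 5.6e-07, SE 0.05), and its changes in the other 4 lines, -0.15 to 0.50, were under 1.5-fold. With the neighbour median subtracted the MLL1-KO1 change was also under 1.5-fold (0.55). Between genotypes, the SAP30 lines were above the SIN3A/3B lines by 0.82 (SE 0.03, adjusted p = 2.4e-08). COL5A2 stood at 0.442 and 0.412 TPM in Parental, 0.742 and 0.558 (KO1) and 0.656 and 0.458 (KO2) in the SAP30 lines, 1.05 and 1.21 (DKO1) and 2.28 and 2.15 (DKO2) in the SIN3A/3B lines, and 0.637 and 0.916 (KO1) and 1.24 and 1.0 (KO2) in the MLL1 lines. All SIN3A/3B libraries were above 1 TPM, and both parental libraries were under it. The gene entered the tests through the SIN3A/3B lines and MLL1-KO2, the lines in which it rose. COL5A2 rose in SIN3A/3B-DKO1 (0.82, SE 0.18, adjusted p = 0.0027), SIN3A/3B-DKO2 (1.55, adjusted p = 3.9e-05) and MLL1-KO2 (0.80, adjusted p = 0.0023). The partners of type V collagen were thus on opposite sides of Parental in SIN3A/3B-DKO1.

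COL27A1, a fibrillar collagen of developing cartilage, stood at 3.94 and 4.63 TPM in Parental, 4.13 and 3.72 (KO1) and 3.9 and 3.56 (KO2) in the SAP30 lines, 3.42 and 3.23 (DKO1) and 3.45 and 2.85 (DKO2) in the SIN3A/3B lines, and 16.8 and 15.1 (KO1) and 13.6 and 14.3 (KO2) in the MLL1 lines. The MLL1 libraries were all above 13 TPM and the others all under 5 TPM. COL27A1 rose in both MLL1 lines (1.79 and 1.60, SE 0.11, adjusted p at most 3.7e-07) and no other line passed the test, with changes of -0.39 to -0.11. The log2 difference was 1.83 between the MLL1 and SAP30 lines and 2.05 between the MLL1 and SIN3A/3B lines (SE 0.08, adjusted p 5.2e-09 and 1.9e-09).

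COL7A1 and COL17A1 belong to the junction between epithelium and connective tissue: type VII collagen forms the anchoring fibrils below the basement membrane and type XVII collagen is the transmembrane collagen of hemidesmosomes. Both rose in both MLL1 lines. The COL7A1 promoter window (RefSeq, GRCh38.p14) is printed for comparison with COL6A3, which also rose there, with GC boxes and a TATAAA in capitals.
COL7A1, chr3:48595330-48595579, minus strand: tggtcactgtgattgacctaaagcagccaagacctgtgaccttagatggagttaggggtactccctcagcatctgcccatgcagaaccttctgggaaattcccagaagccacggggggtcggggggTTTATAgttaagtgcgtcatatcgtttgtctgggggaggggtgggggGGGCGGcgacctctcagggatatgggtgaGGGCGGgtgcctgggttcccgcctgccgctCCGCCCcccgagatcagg
It holds 3 GC boxes, 1 TATAAA, no CCAAT and 11 CG pairs, against no such box in the COL6A3 window of the same length. COL7A1 stood at 9.74 and 10.8 TPM in Parental, 14.9 and 15 (KO1) and 14.9 and 17 (KO2) in the SAP30 lines, 8.6 and 8.01 (DKO1) and 9.51 and 8.98 (DKO2) in the SIN3A/3B lines, and 54.6 and 44.6 (KO1) and 46.9 and 54.4 (KO2) in the MLL1 lines. The 4 MLL1 libraries lay above all others, the SAP30 libraries next, and Parental lay just above the SIN3A/3B libraries. Its log2 changes in the MLL1 lines were 2.21 and 2.25 (SE 0.11, adjusted p 2e-08 and 1.5e-08). COL7A1 rose in SAP30-KO2 (0.61, adjusted p = 0.00065) and was at 0.52 in SAP30-KO1 (adjusted p = 0.0018), where the change was under 1.5-fold. The call in SAP30-KO2 was lost without Parental replicate 1 (log2 change 0.54) and without SAP30-KO2 replicate 2 (0.52), and with the neighbour median subtracted (0.57). COL17A1 stood at 4.39 and 4.45 TPM in Parental, 4.61 and 4.85 (KO1) and 3.52 and 4.59 (KO2) in the SAP30 lines, 6.04 and 5.66 (DKO1) and 6.5 and 6.34 (DKO2) in the SIN3A/3B lines, and 12.6 and 13.2 (KO1) and 23.1 and 22.6 (KO2) in the MLL1 lines. The MLL1 libraries did not overlap any other, and MLL1-KO2 was the highest group. COL17A1 rose on the log2 scale by 1.45 in MLL1-KO1 and 2.25 in MLL1-KO2 (SE 0.10, adjusted p 4.2e-07 and 1.1e-08), and the difference between the lines passed the test (-0.80, SE 0.10, adjusted p = 0.00012). Its changes in the other 4 lines were -0.12 to 0.49 and did not reach 1.5-fold.

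COL13A1, the other transmembrane collagen tested, had the highest mean of the family. It stood at 255 and 249 TPM in Parental, 239.6 and 236 (KO1) and 240.1 and 236 (KO2) in the SAP30 lines, 271 and 264 (DKO1) and 268 and 248 (DKO2) in the SIN3A/3B lines, and 167 and 162 (KO1) and 162 and 163 (KO2) in the MLL1 lines. The 10 libraries outside the MLL1 lines were at 236 to 271 TPM, and the MLL1 libraries were all lower. COL13A1 fell in the MLL1 lines by just over the minimum, with log2 changes of -0.61 and -0.63 (SE 0.04, adjusted p 1.1e-07 and 7.4e-08). Its neighbours on chromosome 10 had medians of -0.17 and -0.21 in these lines, and with these subtracted the changes were -0.45 and -0.42, under 1.5-fold. In the other lines it was at -0.08 to 0.09 with adjusted p of 0.065 to 0.47.

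COL18A1 and COL15A1 encode the multiplexins, basement membrane proteoglycans. COL18A1, from which endostatin is cut, stood at 37.7 and 37.8 TPM in Parental, 22.8 and 22.1 (KO1) and 22.3 and 22.5 (KO2) in the SAP30 lines, 19.1 and 18.9 (DKO1) and 20.1 and 18.2 (DKO2) in the SIN3A/3B lines, and 81.6 and 75.8 (KO1) and 52.2 and 56 (KO2) in the MLL1 lines. The SAP30 and SIN3A/3B libraries all lay below Parental and the MLL1 libraries all lay above it. COL18A1 fell in the SAP30 lines (-0.74 and -0.74) and in the SIN3A/3B lines (-0.97 and -0.96, SE 0.06, adjusted p at most 1.9e-06). In the MLL1 lines it rose in KO1 (1.05, adjusted p = 5.4e-08) and was at 0.51 in KO2, under 1.5-fold at an adjusted p of 1.6e-05. Tested directly, the MLL1 lines were above the SAP30 lines by 1.52 (SE 0.04, adjusted p = 1.2e-10) and above the SIN3A/3B lines by 1.75 (adjusted p = 3.4e-11). The 3 antisense genes listed for COL18A1 and COL4A2 had at most 2 reads in a library. COL15A1 stood at 0.343 and 0.271 TPM in Parental, 0.395 and 0.489 (KO1) and 0.227 and 0.463 (KO2) in the SAP30 lines, 0.603 and 0.234 (DKO1) and 0.203 and 0.253 (DKO2) in the SIN3A/3B lines, and 1.67 and 1.44 (KO1) and 1.06 and 0.792 (KO2) in the MLL1 lines. It was under 1 TPM outside the MLL1 lines, so it entered the tests through them. COL15A1 rose in both, with log2 changes of 1.35 and 0.82 (SE 0.23, adjusted p 0.00047 and 0.01), and the call in MLL1-KO2 was lost without its replicate 1 (0.68, adjusted p = 0.071).

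COL8A1, the short-chain network collagen, was the second most abundant member and stood at 156 and 149 TPM in Parental, 199.9 and 182 (KO1) and 202 and 194 (KO2) in the SAP30 lines, 238 and 230.03 (DKO1) and 239 and 226 (DKO2) in the SIN3A/3B lines, and 107 and 103 (KO1) and 142 and 143 (KO2) in the MLL1 lines. The SIN3A/3B libraries were the highest, the SAP30 libraries next, then Parental, and the MLL1 libraries the lowest, with no overlap between these sets. COL8A1 rose in the SIN3A/3B lines, at 0.62 and 0.61 (SE 0.05, adjusted p 2.1e-06 and 2.8e-06). The calls lay close to the minimum: without Parental replicate 2 they were 0.58 and 0.57, SIN3A/3B-DKO2 was at 0.57 without its replicate 1, and with the neighbour median subtracted they were 0.35 and 0.26, all under 1.5-fold. The SAP30 lines, at 0.32 and 0.38, and the MLL1 lines, at -0.53 and -0.10, did not pass, although MLL1-KO1 did so with the neighbour median subtracted (-0.65). The MLL1 lines were lower than the SAP30 lines (log2 difference -0.66, SE 0.03, adjusted p = 2.2e-08) and the SIN3A/3B lines (-0.93, adjusted p = 1.3e-09).

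The fibril-associated collagens (FACIT), which sit on the surface of other fibrils, were split. COL12A1, found on type I fibrils under tension, stood at 64.9 and 54.5 TPM in Parental, 37.1 and 28.3 (KO1) and 37.9 and 35.7 (KO2) in the SAP30 lines, 43.4 and 43.3 (DKO1) and 58.1 and 68.7 (DKO2) in the SIN3A/3B lines, and 34.1 and 31.9 (KO1) and 34.9 and 38.1 (KO2) in the MLL1 lines. The MLL1 and SAP30 libraries all lay below Parental, and SIN3A/3B-DKO2 overlapped it. COL12A1 fell in the SAP30 lines (-0.87 and -0.69) and in the MLL1 lines (-0.84 and -0.70, SE 0.12, adjusted p at most 0.00085). Without Parental replicate 1 the SAP30-KO2 and MLL1-KO2 calls were lost (-0.56 and -0.57), and with the neighbour median subtracted those of SAP30-KO2, MLL1-KO1 and MLL1-KO2 were lost (-0.57, -0.56 and -0.41). In the SIN3A/3B lines COL12A1 was at -0.45 and 0.09.

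COL9A2 and COL9A3 encode chains of type IX collagen of cartilage and lay on opposite sides of Parental in the MLL1 lines. COL9A2 stood at 9.14 and 10.6 TPM in Parental, 17.7 and 18.8 (KO1) and 18.2 and 21 (KO2) in the SAP30 lines, 15.8 and 17.9 (DKO1) and 16.8 and 14.1 (DKO2) in the SIN3A/3B lines, and 5.46 and 7.35 (KO1) and 6.26 and 6.59 (KO2) in the MLL1 lines. The SAP30 and SIN3A/3B libraries all lay above Parental and the MLL1 libraries all below. COL9A2 rose in the SAP30 lines (0.86 and 0.95) and in the SIN3A/3B lines (0.75 and 0.62, SE 0.14, adjusted p at most 0.003). The SIN3A/3B-DKO2 call was lost without Parental replicate 1 (0.52) and without SIN3A/3B-DKO2 replicate 1 (0.50), and with the neighbour median subtracted both SIN3A/3B lines were under 1.5-fold (0.56 and 0.43). In the MLL1 lines it was at -0.60 and -0.58, of which the former passed (adjusted p = 0.003) and the latter was just under 1.5-fold (adjusted p = 0.0033). The former was lost without Parental replicate 2 (-0.50) or MLL1-KO1 replicate 1 (-0.40). COL9A3 stood at 0.839 and 0.804 TPM in Parental, 0.503 and 0.83 (KO1) and 0.53 and 0.737 (KO2) in the SAP30 lines, 0.284 and 0.547 (DKO1) and 0.335 and 0.0976 (DKO2) in the SIN3A/3B lines, and 2.02 and 1.5 (KO1) and 4.52 and 4.15 (KO2) in the MLL1 lines. The MLL1 libraries were the only ones above 1 TPM, so COL9A3 entered the tests through them. COL9A3 rose in MLL1-KO1 (0.77, SE 0.23, adjusted p = 0.015) and MLL1-KO2 (1.87, adjusted p = 3.5e-05) and fell in SIN3A/3B-DKO2 (-0.90, adjusted p = 0.0076). The MLL1-KO1 call was lost without Parental replicate 2 (adjusted p = 0.056) or MLL1-KO1 replicate 1 (0.11), and the SIN3A/3B-DKO2 call without SIN3A/3B-DKO2 replicate 2 (0.061).

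COL16A1, a FACIT near basement membranes and microfibrils, stood at 0.349 and 0.281 TPM in Parental, 0.896 and 0.947 (KO1) and 1.09 and 1.2 (KO2) in the SAP30 lines, 0.59 and 0.398 (DKO1) and 0.787 and 1.17 (DKO2) in the SIN3A/3B lines, and 2.44 and 1.98 (KO1) and 4.15 and 4.44 (KO2) in the MLL1 lines. Parental was the lowest group and MLL1-KO2 the highest, at over 4 TPM. Only edited libraries reached 1 TPM, so COL16A1 entered the tests through them. COL16A1 rose in the SAP30 lines (0.80 and 1.02), SIN3A/3B-DKO2 (0.85, adjusted p = 0.002) and the MLL1 lines (1.73 and 2.56, SE 0.17, adjusted p 7.3e-06 and 2.7e-07). In SIN3A/3B-DKO1 it was at 0.28 (adjusted p = 0.19). Among the FACIT genes below the filter, COL19A1 had 5 and 1 reads in Parental and 27 to 37 in each MLL1 library, against 3 to 14 in the SAP30 and SIN3A/3B libraries. By reads relative to depth it was 8.62-fold (95% exact interval 3.74 to 24.4) and 11.9-fold (5.19 to 33.4) higher in the MLL1 lines than in Parental. The ratio was 3.01 (1.15 to 9.20) in SAP30-KO1 and 3.57 (1.43 to 10.7) in SAP30-KO2. In the SIN3A/3B lines, at 1.14 and 1.42, the intervals included 1. In the fit without the filter COL19A1 rose in both MLL1 lines (0.75 and 0.97, adjusted p 3.5e-05 and 4.9e-06). Its changes in the SAP30 lines were under 1.5-fold in that fit (0.24 and 0.30, adjusted p 0.036 and 0.013). COL21A1 had no read in Parental and 5 to 13 in each MLL1 library, and rose in MLL1-KO2 in that fit (adjusted p = 8.3e-05).

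**Figure D4:**
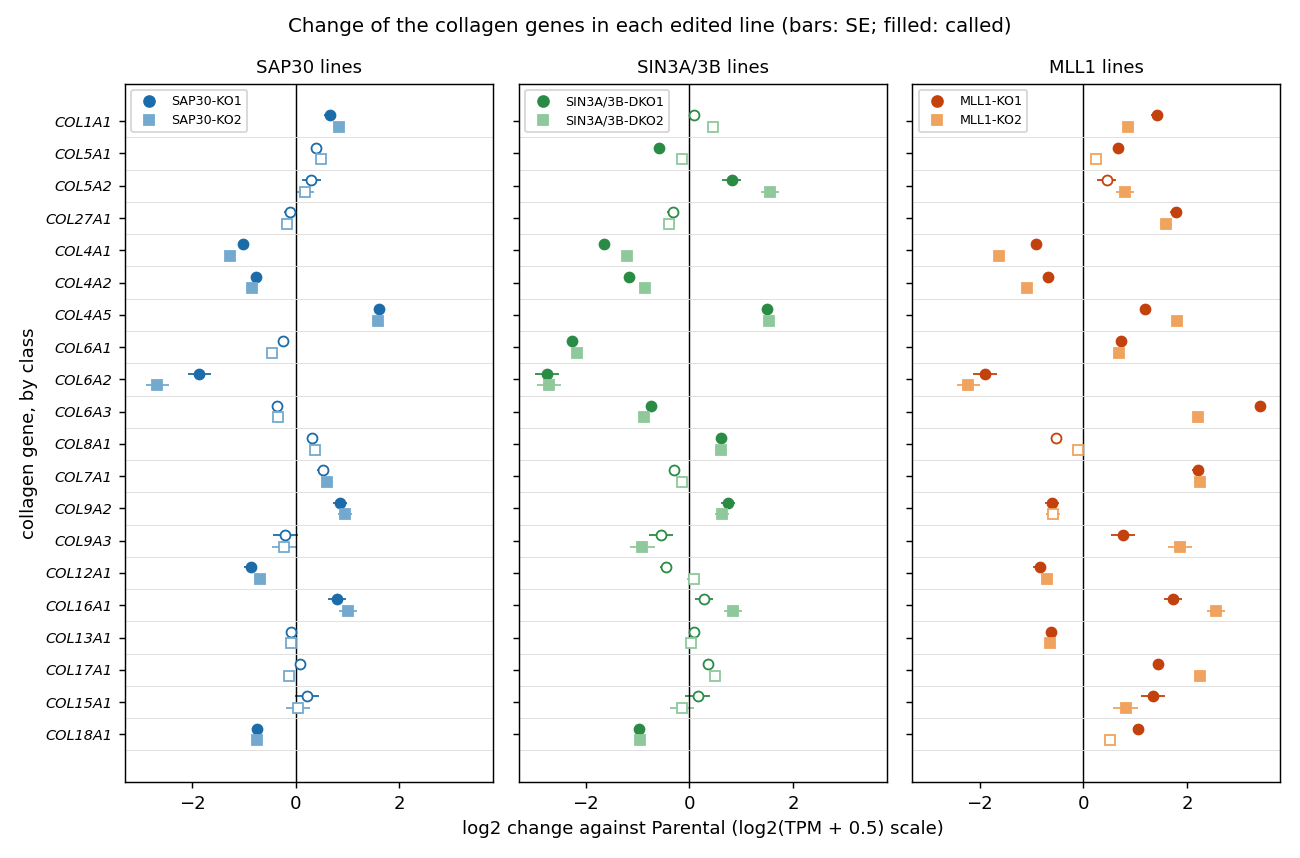
Log2 change against Parental (x axis) of the 20 collagen genes tested (y axis, grouped by class), in the 2 lines of each genotype (panels). Circles are line 1 and squares line 2, bars are the SE, and filled symbols passed the test. By limma, 0 of these genes differed between the SAP30 lines, 1 between the SIN3A/3B lines and 6 between the MLL1 lines. COL4A1, COL4A2 and COL6A2 are left of 0 and COL4A5 right of 0 in all 6 lines, and 10 genes are filled to the right of 0 in both MLL1 lines. COL9A3 and COL15A1 entered the tests through the MLL1 lines alone, COL16A1 through edited lines and COL6A2 through Parental alone.

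Counted over the 20 tested genes, 5 fell in both SAP30 lines (COL4A1, COL4A2, COL6A2, COL12A1 and COL18A1), against 6.79% of all genes tested, and 4 rose in both (COL1A1, COL4A5, COL9A2 and COL16A1), against 6.17%. In both SIN3A/3B lines 6 fell (COL4A1, COL4A2, COL6A1, COL6A2, COL6A3 and COL18A1), against 5.99%, and 4 rose (COL4A5, COL5A2, COL8A1 and COL9A2), against 4.7%, or 2 without SIN3A/3B-DKO2 replicate 1. In both MLL1 lines 5 fell (COL4A1, COL4A2, COL6A2, COL12A1 and COL13A1), against 11.4%, and 10 rose (COL1A1, COL4A5, COL6A1, COL6A3, COL7A1, COL9A3, COL15A1, COL16A1, COL17A1 and COL27A1), against 5.0%. In all 6 lines 3 fell, against 2.67%, and 1 rose, against 0.945%, and each of the 20 changed in at least 1 line, against 41.4% of all genes. These counts, and the medians given next, do not speak for the whole family, because COL6A2 passed the filter through Parental and COL5A2, COL9A3, COL15A1 and COL16A1 through edited lines. Among the 11 members with a mean of at least 10 TPM, 4 fell and 1 rose in both SAP30 lines (4.55% and 4.29% of 9487 genes at that level), 5 fell and 2 rose in both SIN3A/3B lines (3.36% and 3.35%), and 4 fell and 3 rose in both MLL1 lines (7.98% and 4.06%).

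SAP30-KO1 had 5 genes lower and 4 higher (7.86% and 7.8% of all genes), and SAP30-KO2 had 5 and 5 (8.12% and 7.44%). SIN3A/3B-DKO1 had 7 lower and 4 higher (8.66% and 7.76%), and SIN3A/3B-DKO2 had 7 and 5 (7.56% and 6.0%). MLL1-KO1 had 6 lower and 12 higher (16.3% and 6.89%), and MLL1-KO2 had 5 and 11 (14.9% and 10.2%). The median log2 change of the 20 genes was 0.00 and -0.10 in the SAP30 lines against 0.03 and 0.01 over all genes tested. In the SIN3A/3B lines it was -0.30 and -0.15 against 0.00 and 0.01. In the MLL1 lines it was 0.75 and 0.74 against -0.09 and -0.04. The balance of calls in MLL1-KO1, 12 higher and 6 lower (66.7% higher), was 13 and 3 (81.2%) with voom on the recovered reads, 13 and 4 with quantile normalization and 12 and 3 (80.0%) with the neighbour median subtracted. In SIN3A/3B-DKO1 the balance of 4 higher and 7 lower (36.4%) became 2 and 7 (22.2%) with the neighbour median subtracted.

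The lines of a genotype were also compared with each other. Between SAP30-KO1 and SAP30-KO2, limma called 0 of the 20 genes (0.148% of all genes), 3 had an unadjusted p under 0.05 (13.3% of all genes) and voom called 1. Between the SIN3A/3B lines 1 gene differed, COL5A2, which was lower in SIN3A/3B-DKO1 by a log2 difference of -0.74 (SE 0.18, adjusted p = 0.024), against 2.23% of all genes (1.01% lower and 1.22% higher). That call was lost without any 1 of the 4 SIN3A/3B libraries (adjusted p 0.052 to 0.13). Between the MLL1 lines 6 genes differed (10.4% of all genes, 3.27% higher and 7.15% lower in MLL1-KO1): COL4A1 and COL6A3 were higher in MLL1-KO1, and COL4A5, COL9A3, COL16A1 and COL17A1 were lower. The genotypes were then compared without the parental libraries. Of the 20 genes, 5 differed between the SAP30 and SIN3A/3B lines, against 7.47% of all genes: COL5A1, COL6A1 and COL7A1 were higher and COL5A2 and COL12A1 lower in the SAP30 lines (4.22% and 3.25% of all genes). Between the MLL1 and SAP30 lines 11 differed, against 19.8%, with 9 higher in the MLL1 lines and COL8A1 and COL9A2 lower (6.34% and 13.5% of all genes). Between the MLL1 and SIN3A/3B lines 16 differed, against 19.9%, with 12 higher in the MLL1 lines and COL8A1, COL9A2, COL12A1 and COL13A1 lower (6.91% and 13%). COL4A1, COL4A2 and COL4A5 were under 1.5-fold in every comparison of genotypes. Between the SAP30 and SIN3A/3B lines the differences of COL4A1 and COL4A2 were 0.29 and 0.21 (adjusted p 0.00036 and 0.00029), between the MLL1 and SIN3A/3B lines 0.17 and 0.13 (0.0071 and 0.0033), and between the MLL1 and SAP30 lines -0.12 and -0.08 (0.033 and 0.054). Those of COL4A5 were -0.10 to 0.08 (adjusted p at least 0.18). The median difference of the 20 genes was 0.23 between the SAP30 and SIN3A/3B lines, 0.39 between the MLL1 and SAP30 lines and 0.85 between the MLL1 and SIN3A/3B lines, against 0.02, -0.10 and -0.08 over all genes. These medians and the counts between genotypes do not speak for the whole family either. COL9A3 and COL15A1 passed the filter through the MLL1 lines alone, and COL5A2 through the SIN3A/3B lines and MLL1-KO2. COL16A1 passed through edited lines and COL6A2 through Parental.

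Genes that make, secrete, process and bind collagens were counted from lists. Of 17 tested genes of collagen modification and folding, 2 fell in both SAP30 lines, 4 in both SIN3A/3B lines and 5 in both MLL1 lines, against 6.79%, 5.99% and 11.4% of all genes, and none rose in any line by limma. Each of these counts includes LEPREL2 (P3H3), which passed the filter through Parental alone, at 1.63 and 1.9 TPM there and at most 0.0468 elsewhere, and so had to be lower in the edited lines. GLT25D2 (COLGALT2), a collagen galactosyltransferase, stood at 42.7 and 42.1 TPM in Parental and 9.56 to 22 in the edited lines, and fell in all 6 (log2 change -2.06 to -1.01). LEPREL1 (P3H2), the prolyl 3-hydroxylase that acts on type IV collagen, stood at 145 to 151 TPM in the 10 libraries outside the MLL1 lines and 20.2 to 27.4 in the MLL1 libraries, and fell there (log2 change -2.43 and -2.82, adjusted p 2.7e-12 and 1e-12). P4HA1, a catalytic subunit of prolyl 4-hydroxylase, stood at 99.6 and 95.5 TPM in Parental and 47.4 to 52.3 in the SIN3A/3B lines, where it fell (log2 change -0.94 and -1.01). PLOD2, a lysyl hydroxylase, stood at 145 and 142 TPM in Parental and 82 to 91.3 in the SIN3A/3B and MLL1 lines, and fell in those 4 lines. FKBP14, a prolyl isomerase of the endoplasmic reticulum, stood at 22 and 19.1 TPM in Parental and 12.3 to 13.4 in the MLL1 lines, where it fell (log2 change -0.70 and -0.61). SERPINH1 (HSP47), the collagen chaperone, stood at 279.7 and 277 TPM in Parental, 199 to 209.8 in the SAP30 lines and 301 to 375 in the others, and its changes were under 1.5-fold (log2 -0.45 to 0.42, adjusted p at most 0.004). Median log2 changes of the list were -0.34 to -0.08 over the 6 lines.

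Over all genes, 6.17%, 4.7% and 5.0% rose in both SAP30, both SIN3A/3B and both MLL1 lines, and the shares that fell are given above. Of 10 tested genes of collagen secretion, none changed in both lines of a genotype, and their medians were -0.29 to 0.06. Of 11 tested genes of processing and cross-linking, 1 fell and 1 rose in both SAP30 lines, 1 fell and 1 rose in both SIN3A/3B lines, and 1 fell in both MLL1 lines, with medians of -0.15 to 0.08. The gene that fell in each case was LOXL1, a lysyl oxidase, at 34.3 and 34.8 TPM in Parental, 17.2 to 18.1 in the SAP30 lines, 12.9 to 15.9 in the SIN3A/3B lines and 5.13 to 10.4 in the MLL1 lines. The gene that rose was PCOLCE, an enhancer of procollagen C-proteinase, at 3.78 and 3.97 TPM in Parental and 5.73 to 8.07 in the SAP30 and SIN3A/3B lines. PCOLCE fell in MLL1-KO1 (log2 change -0.68, limma adjusted p = 0.0024) and was at -0.03 in MLL1-KO2. Of 9 tested collagen receptors, none changed in both SAP30 lines, 1 fell in both SIN3A/3B lines, and 3 rose and 1 fell in both MLL1 lines (5.0% and 11.4% of all genes), with medians of -0.42 to 0.13. ITGA2, the collagen-binding integrin subunit, stood at 207 and 194 TPM in Parental and fell in the MLL1 lines (80.9 to 113 TPM). GPR56 (ADGRG1), an adhesion receptor for type III collagen, stood at 67 and 67.5 TPM in Parental and rose there (164 to 178 TPM), as did DDR1 (4.56 and 4.25 against 7.68 to 9.39) and ITGA10 (5.68 and 4.86 against 9.51 to 36.2). MRC2, the endocytic receptor that clears collagen, fell in the SIN3A/3B lines, from 26.7 and 25.9 TPM in Parental to 6.62 to 9.63 TPM. The heat map of these lists shows all tested genes.

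**Figure D5:**
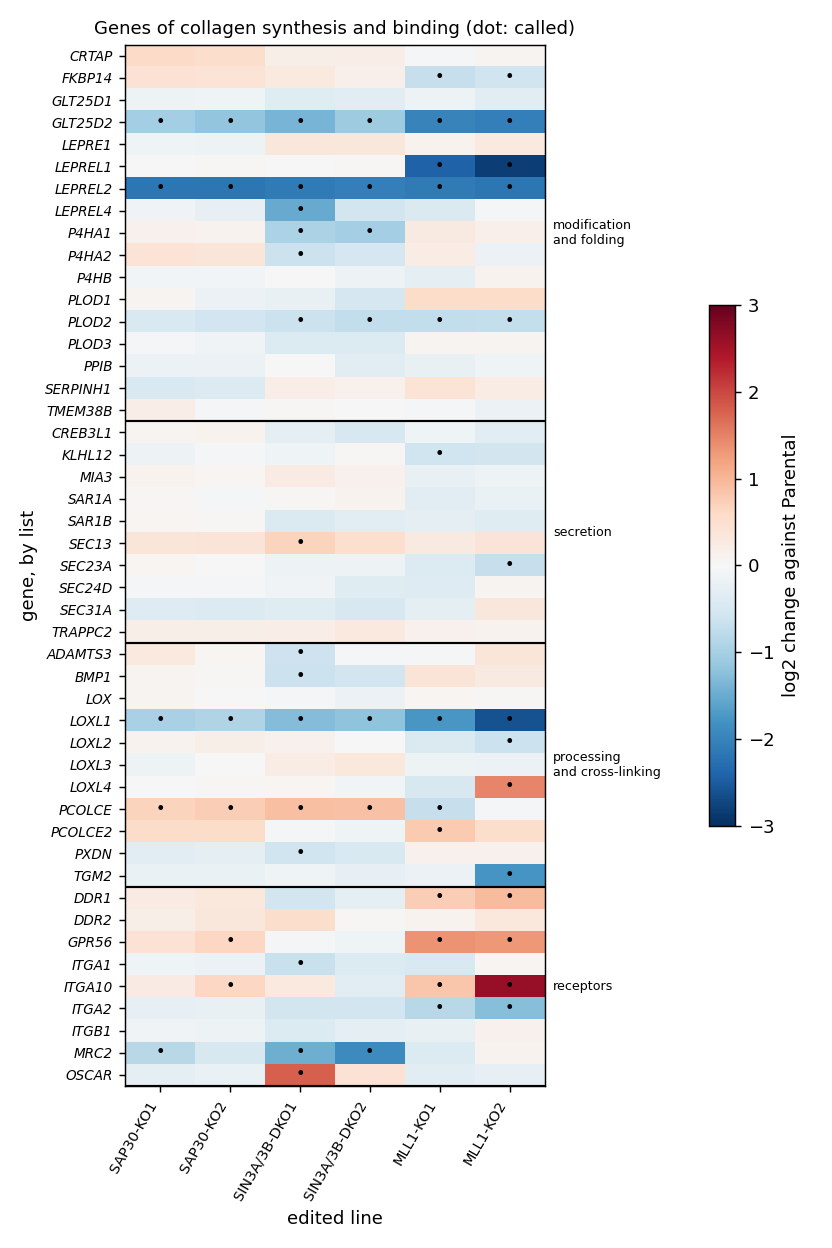
Log2 change against Parental (colour, blue lower and red higher, from -3 to 3) of the tested genes of 4 lists (rows, split by black lines) in the 6 edited lines (columns). A dot marks a gene that passed the test in that line. GLT25D2, LEPREL2 and LOXL1 are blue with a dot in all 6 columns, LEPREL1 in the MLL1 columns alone, and P4HA1 in the SIN3A/3B columns alone.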

How the data were processed

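The authors isolated total RNA, prepared KAPA mRNA libraries and sequenced them on a NextSeq 500. The submitters' processing notes name FastQC 0.11.2, TopHat, featureCounts and hg19. The annotation and the strand setting are not given in the sources used here. The authors deposited 1 table of values named RPKM. Every library sums to 1000000, so the deposited values are TPM, and the test planned for RPKM was kept. Because each library has the same total, a change in total RNA cannot be seen. Whole reads were recovered for 18519 of 18519 genes with a value above 0 (100.0%, tolerance 0.02 reads) and used for read counts, counting intervals and the voom alternative. Among the gene names, 28 had become dates. No column of other samples was present.

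limma 3.58.1 in R 4.3.3 (trend, two-sided) was fitted to log2(TPM + 0.5) with 7 group means over 14 libraries (7 residual degrees of freedom and 3.58 of the prior), for genes of at least 1 TPM in at least 2 libraries, with calls at an adjusted p under 0.05 and at least 1.5-fold. Same-numbered libraries did not deviate together (correlations -0.07 to 0.08 over 21 pairs of groups), so the fit has no replicate block. Replicates differed by more than sampling noise (chi-square per degree of freedom 1.47 to 8.00) and none was merged. The value was 8.00 in SIN3A/3B-DKO2 and 3.77 in SAP30-KO1, and 1.47 to 2.25 in the other groups. The fit uses 1 spread per gene for all groups and so does not follow this difference. The trend fit called 1837 to 3408 genes in a line against Parental and voom 1998 to 3565. The fit was tested on simulated data with the same spread for every gene and library. Changes were placed only in genes with many parental reads, in a single line. That test therefore does not speak for genes at low counts or for the difference in replicate noise given above. The collagen genes and all gene lists were chosen with earlier results of these data known. Values in every library were given for members called in both lines of a genotype or among the 12 highest means, and listed pathway genes were named where both lines of a genotype changed alike, except SERPINH1, chosen after its values were seen. Gene positions are from GENCODE 44 on GRCh37, and promoters from RefSeq on GRCh38.p14, which had an entry for 32 of the 42 members. Alternatives were the pseudocount (0.1 and 1), no filter, quantile and median ratio scaling, a 2-fold and no minimum, only the libraries compared, the block, voom, the running median of 51 neighbouring genes and leaving out each library. The restriction to genes with a position was added after seeing the data.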

Additional observations from a re-analysis of the deposited data

Results flagged for a closer look

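Groups of 2 libraries are too small to single out a library that stands apart. The collagen genes below are given because a test of the difference between 2 groups of edited lines passed (limma, all 13540 genes, adjusted p under 0.05 and at least 1.5-fold). Each value is a log2 difference, and the direction is stated before the values. COL9A3 and COL15A1 passed the filter on low values through the MLL1 lines alone, and COL5A2 through the SIN3A/3B lines and MLL1-KO2. COL16A1 passed it through edited lines and COL6A2 through Parental.

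For SIN3A/3B-DKO1 minus SIN3A/3B-DKO2 it was -0.74 for COL5A2. For MLL1-KO1 minus MLL1-KO2 the differences were 1.19 for COL6A3, 0.71 for COL4A1, -0.61 for COL4A5, -0.80 for COL17A1, -0.83 for COL16A1 and -1.10 for COL9A3. The MLL1 lines thus differed in the size of a change that they shared against Parental for each of these 6 genes.

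For the SAP30 lines minus the SIN3A/3B lines the differences were 1.86 for COL6A1, 0.82 for COL5A1, 0.78 for COL7A1, -0.59 for COL12A1 and -0.94 for COL5A2. That of COL12A1 fell under 1.5-fold without SAP30-KO1 replicate 2 (-0.50), SAP30-KO2 replicate 2 (-0.57) or SIN3A/3B-DKO2 replicate 2 (-0.53).

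For the MLL1 lines minus the SAP30 lines they were 3.15 for COL6A3, 1.86 for COL17A1, 1.83 for COL27A1, 1.66 for COL7A1, 1.53 for COL9A3, 1.52 for COL18A1, 1.23 for COL16A1, 1.05 for COL6A1, 0.95 for COL15A1, -0.66 for COL8A1 and -1.49 for COL9A2. For the MLL1 lines minus the SIN3A/3B lines they were 3.61 for COL6A3, 2.92 for COL6A1, 2.45 for COL7A1, 2.05 for COL27A1, 2.04 for COL9A3, 1.75 for COL18A1, 1.58 for COL16A1, 1.42 for COL17A1, 1.08 for COL15A1, 0.87 for COL1A1, 0.83 for COL5A1 and 0.67 for COL6A2. The lower genes were COL12A1 at -0.59, COL13A1 at -0.68, COL8A1 at -0.93 and COL9A2 at -1.27. Of these, COL12A1 fell under 1.5-fold without SIN3A/3B-DKO2 replicate 2 (-0.53), MLL1-KO1 replicate 2 (-0.56) or MLL1-KO2 replicate 1 (-0.56), and COL6A2 without MLL1-KO2 replicate 1 (0.55).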

How the results depend on the processing

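No collagen result reversed under any alternative. Of 115 single-gene calls, 114 were kept with a pseudocount of 0.1, 106 with 1, 115 without the filter, 109 with quantile normalization, 108 with median ratio scaling, 59 with a 2-fold minimum, 114 with only the libraries compared, 109 with voom and 95 with the neighbour median subtracted, and 99 held without any 1 library. With a 2-fold minimum the counts were 2 lower and 1 higher (both SAP30 lines), 3 and 1 (SIN3A/3B), 1 and 6 (MLL1), 0 between the SIN3A/3B lines, 2 between the MLL1 lines, 1 between SAP30 and SIN3A/3B, and 10 between MLL1 and SIN3A/3B. With no minimum they were 7 higher in both SAP30 lines, 6 between the SIN3A/3B lines, 11 between the MLL1 lines and 17 between SAP30 and SIN3A/3B. Between the SIN3A/3B lines the count was 2 with a pseudocount of 0.1, quantile normalization or voom, and 0 with only the libraries compared. With voom 3 genes were lower in both MLL1 lines and 1 differed between the SAP30 lines. With the neighbour median subtracted 3 were lower in both SAP30 lines, 2 higher in both SIN3A/3B lines and 2 lower in both MLL1 lines. Other than the 2-fold minimum and the loss of libraries, by construction, the cause of these moves was not tested.

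Leaving out each library in turn gave 4 to 5 lower and 4 to 5 higher in both SAP30 lines, 6 to 7 and 2 to 4 in both SIN3A/3B lines (2 without SIN3A/3B-DKO2 replicate 1), and 5 to 6 and 9 to 10 in both MLL1 lines. The count was 0 to 0 between the SAP30 lines, 0 to 2 between the SIN3A/3B lines, 5 to 8 between the MLL1 lines, 4 to 6 between SAP30 and SIN3A/3B, 11 to 11 between MLL1 and SAP30, and 15 to 17 between MLL1 and SIN3A/3B.

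Adding a replicate block left the counts as they were: 5 and 4, 6 and 4, and 5 and 10 in both lines of a genotype, 0, 1 and 6 between lines, and 5, 11 and 16 between genotypes. The block changed no call, and the numbers pair no libraries (mean correlation 0.01).

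Genes near 0 are limited by depth: at 1 to 3 reads a fitted change depends on the pseudocount.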
